A study of Mus musculus with 87 samples.

Results

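Gene expression in the amygdala was compared with that in the cingulate cortex of 6 inbred mouse strains. The 2 regions took 26 of the 87 Affymetrix MG_U74Av2 arrays of a survey of 7 tissues, 13 arrays titled amygdala and 13 titled cingulate cortex. The mice were wild-type males aged 8 weeks of the strains FVB/NJ, C57BL/6J, A/J, DBA/2J, 129S6/SvEvTac and C3H/HeJ, and the labels name no treatment, mutation or transgene in either group. Each strain gave 2 arrays per region, except for 3 arrays of the amygdala in 129S6/SvEvTac and 3 of the cingulate cortex in A/J. An array held RNA of 1 mouse (5 amygdala and 4 cingulate arrays) or of 2 pooled mice (8 and 9 arrays). Both regions were amplified in 2 rounds from 50 ng of total RNA, so the comparison does not cross labelling protocols. Whole dissected regions were used, so each value averages over all nuclei or layers and all cell types of the piece.

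The amygdala is a group of nuclei in the temporal part of the forebrain, known for its part in fear, reward and social behaviour. Its basolateral nuclei are built largely of glutamatergic neurons that resemble those of the cortex. Its central and medial nuclei belong mostly to the subpallium, hold many GABA neurons and are rich in neuropeptides. The cingulate cortex is a layered cortical field on the medial wall of the hemisphere, with glutamatergic projection neurons, GABA interneurons and a covering of meninges on its free surface.

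Arrays had medians between 42.6 and 54.9 and upper quartiles between 165 and 173 intensity units. Arrays correlated at 0.949 to 0.990 within the amygdala, at 0.945 to 0.972 within the cingulate cortex and at 0.938 to 0.971 between the regions. Gapdh, which has probe sets at both ends of its transcript, had a 3' over 5' log2 ratio (larger where 5' signal is lost) of 2.78 ± 0.41 (SD, n = 13) in the amygdala and 2.58 ± 0.27 (n = 13) in the cingulate cortex. No 2 arrays held identical values. According to the experiment files, 8 pairs of an amygdala and a cingulate array came from the same animals, so the regions are not independent sets of mice. In 4 of the 6 strains (C3H/HeJ, C57BL/6J, DBA/2J and FVB/NJ) no scan day held arrays of both regions, and in C57BL/6J no chip lot did, so within these strains region and scan day cannot be told apart. Nothing in the labels says more about how the replicates were prepared, so p-values measure the spread between these arrays, part of which may be technical.

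Intensities are given as deposited, in arbitrary units, as the lowest, median and highest of 13 arrays. A log2 difference is the amygdala minus the cingulate cortex on the scale log2(intensity + 16), fitted with limma with strain as a blocking factor and given with its standard error (SE). It understates the ratio of genes with low intensity. A gene passed the test at an adjusted p (Benjamini-Hochberg over all 6376 probe sets tested) below 0.05. Of these probe sets 899 (14.1%) were higher in the amygdala and 920 (14.4%) higher in the cingulate cortex, and 54 (0.847%) and 71 (1.11%) differed by at least 2-fold. Among the 4972 genes tested, each by its brightest probe set, 688 (13.8%) passed as higher in the amygdala and 752 (15.1%) as higher in the cingulate cortex, 29.0% in all. The median log2 difference of all genes was 0.01. A difference of at least 2-fold was found for 43 genes on the amygdala side and 57 on the cingulate side. All 43 and all 57 had the same sign in 6 of 6 strains, a pattern held by 23.2% of all probe sets. The 13 amygdala arrays did not overlap with the 13 cingulate arrays for 32 and 30 of these genes, against 1.88% of all probe sets. Both patterns follow in part from picking these genes by their difference on the same arrays, so they are a description and not further support.

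**Figure D1:**
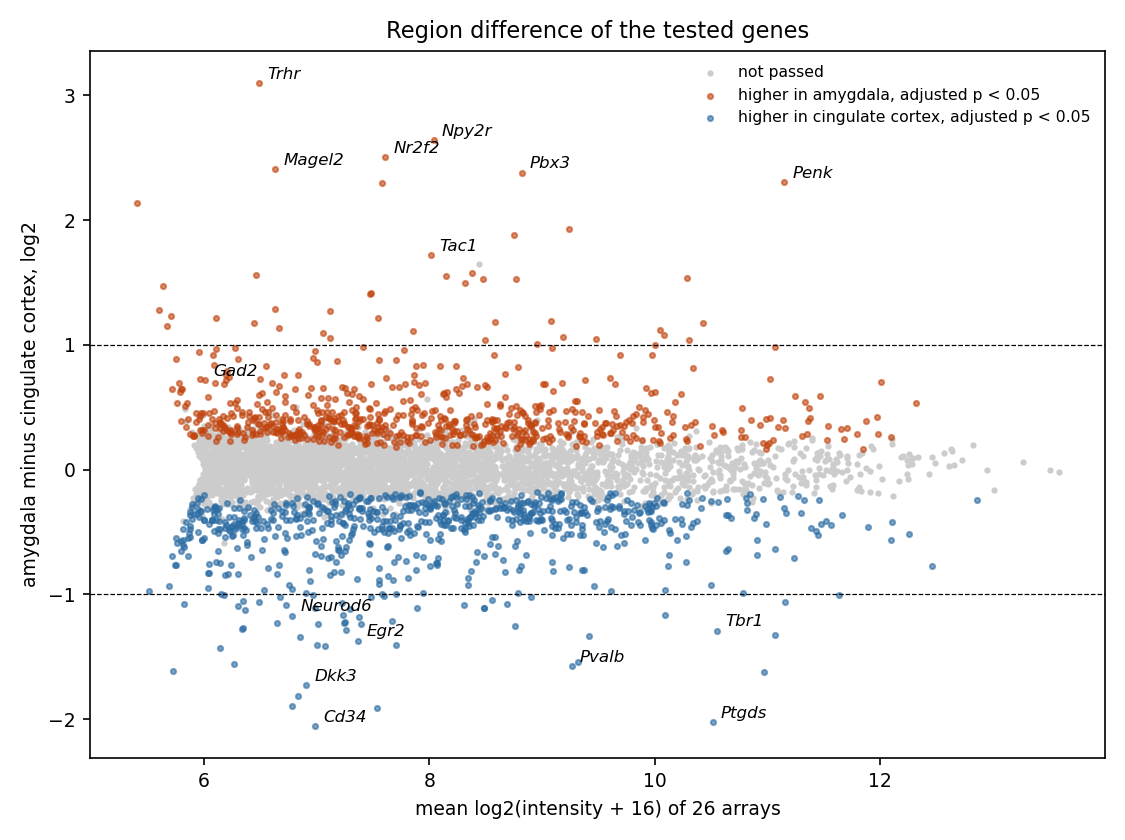
The plot of all tested genes shows the log2 difference between the regions (y axis, amygdala minus cingulate cortex) against the mean log2(intensity + 16) of 26 arrays (x axis). Points above 0 in red passed as higher in the amygdala (688 genes), points below 0 in blue as higher in the cingulate cortex (752 genes), grey points did not pass, and dashed lines mark a 2-fold difference. Trhr and Npy2r lie highest, and Cd34 and Ptgds lowest.

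Among the largest differences on the amygdala side were those of 2 peptide receptors. Trhr, the receptor of thyrotropin-releasing hormone, ranged from 80.0 over a median of 299 to 399 in the amygdala and from 2.03 over 14.8 to 37.2 in the cingulate cortex. The groups did not overlap, and the lowest amygdala arrays were 129S6/SvEvTac replicate 1 and DBA/2J replicate 2. The log2 difference of Trhr was 3.10 ± 0.21 (adjusted p = 7.79e-12, higher in the amygdala in 6 of 6 strains). All its cingulate arrays lay below the intensity of 48.6 that the filter on low values asks for, and with 4 or 64 added in place of 16 the difference of Trhr was 3.815 or 1.994. The same held in the cingulate cortex for Magel2, Zfhx3, Six3 and Gstm6 and in the amygdala for Ephb6 and Npr3, so the sizes of their differences depend on the constant. Its ligand precursor Trh was tested and had a median of 53.0 in the amygdala against 62.0 in the cingulate cortex (log2 difference -0.09, adjusted p = 0.687). Npy2r, the Y2 receptor of neuropeptide Y, which sits largely on axon terminals, ranged from 514 over 623 to 1016 in the amygdala and from 66.7 over 84.0 to 125 in the cingulate cortex. All amygdala arrays stood at least 4 times above every cingulate array. The difference was 2.64 ± 0.10 (adjusted p = 1.51e-16), and a second probe set gave 2.08 (adjusted p = 1.52e-12). Its ligand Npy did not pass, at -0.09.

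Markers of the central and medial nuclei were higher in the amygdala as a group. Of 15 tested members of this list 13 passed as higher in the amygdala, none passed as higher in the cingulate cortex and 2 did not pass (Trh and Dlk1). Their median log2 difference was 0.94, against 0.01 for all genes. The list has 37 genes, of which 27 are on the array and 15 passed the filter on low values, so counts here and below cover tested members only. It was put together with earlier results of these data known, so its direction is a description.

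Penk, the precursor of the enkephalin opioid peptides, was the brightest of them. It ranged from 3183 over 4823 to 7358 in the amygdala and from 747 over 1001 to 1405 in the cingulate cortex, with no overlap. The log2 difference was 2.31 ± 0.13 (adjusted p = 2.31e-13), and a second probe set gave 1.48. Tac1, the precursor of substance P, ranged from 279 over 470.2 to 683 and from 98.1 over 126 to 161, again with no overlap, for a difference of 1.72 ± 0.10 (adjusted p = 4.76e-13). Tac2, the precursor of neurokinin B, had overlapping groups (99.1 to 274 and 62.0 to 103) and a difference of 1.06 ± 0.11 (adjusted p = 1.52e-08). Higher values in the amygdala for Tac1 and Tac2 were found in 8 of 8 pairs of arrays from the same animals.

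The same list held 5 imprinted genes, which are expressed from the copy of a single parent, and all but Dlk1 passed. Magel2 ranged from 126 over 208 to 319 in the amygdala and from 11.8 over 28.4 to 34.3 in the cingulate cortex (2.41 ± 0.12, adjusted p = 8.01e-15). Ndn, its neighbour on chromosome 7, had a difference of 1.18 ± 0.08 on one probe set and 1.22 on the other. Peg3 differed by 0.54 ± 0.10 and Nnat by 0.94 ± 0.14. Among the remaining members, Hap1, a partner of huntingtin abundant in limbic and hypothalamic neurons, had no overlap (441 to 745 against 141 to 229) and a difference of 1.58 ± 0.09 (adjusted p = 3.12e-13). Wfs1, the endoplasmic reticulum protein wolframin, had 1428 to 2841 against 489 to 1323 (1.04 ± 0.12, adjusted p = 2.4e-07). Prkcd, a protein kinase C that marks a class of central amygdala neurons, differed by 0.56 ± 0.11 and by 0.71 on a second probe set.

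Another 3 peptide precursors of the list had small differences whose groups overlapped. Gal (galanin) differed by 0.52 ± 0.11 (adjusted p = 0.000573), Sst (somatostatin) by 0.42 ± 0.13 (adjusted p = 0.0146) and Pdyn (prodynorphin) by 0.36 ± 0.11 (adjusted p = 0.016). Each was higher in the amygdala in 6 of 6 strains and in 6 of 8 same-animal pairs. The smallest strain difference was close to 0 for Gal (0.011 in DBA/2J), Sst (0.022 in C3H/HeJ) and Pdyn (0.031 in 129S6/SvEvTac). Limited to the 16 arrays of these pairs, the test gave adjusted p of 0.0998 for Gal, 0.289 for Sst and 0.126 for Pdyn. With scan day as a term Pdyn had an adjusted p of 0.12 and the other 2 passed.

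**Figure D2:**
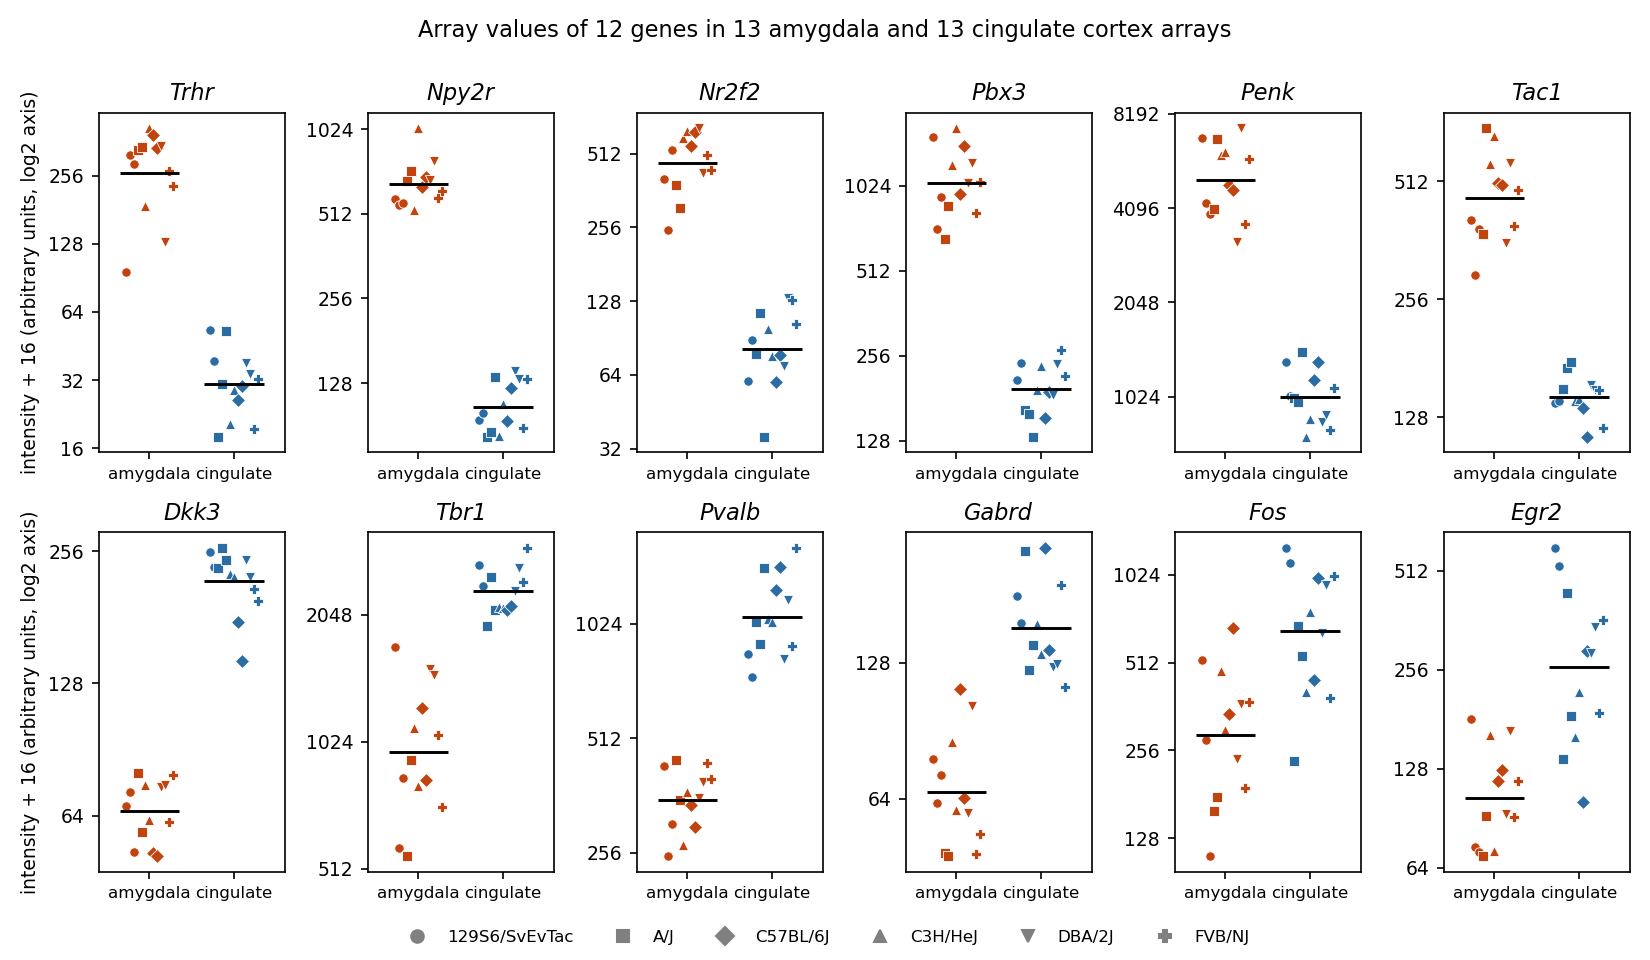
The plots of array values show the intensity + 16 on a log2 axis for 12 genes in the 13 amygdala arrays (red) and the 13 cingulate arrays (blue), with a marker shape for each strain and a line at the mean of the logarithms. The upper row holds genes that were higher in the amygdala, such as Penk (3183 to 7358 against 747 to 1405), and the lower row genes that were higher in the cingulate cortex, where Dkk3, Tbr1, Pvalb and Gabrd did not overlap and Fos and Egr2 did.

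Genes of subpallial GABA neurons were also higher in the amygdala. Of 14 tested, 10 passed as higher in the amygdala, 2 as higher in the cingulate cortex and 2 did not pass, with a median of 0.58. Those that did not pass were Dlx1 (0.09) and Meis2 (0.18). The homeodomain factor Pbx3 ranged from 645 over 1026 to 1619 in the amygdala and from 117 over 177 to 251 in the cingulate cortex. Its difference was 2.38 ± 0.11 (adjusted p = 5.67e-15), and 2 other probe sets gave 1.602 and 1.307. The homeodomain factors Zfhx3 (1.28 ± 0.16) and Six3 (1.23 ± 0.10) had no overlap but low intensities, with medians of 60.3 and 61.8 in the amygdala.

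The genes that make and load GABA moved with these factors. Slc32a1, the vesicular GABA transporter, had a median of 3380 in the amygdala against 1668 in the cingulate cortex (0.98 ± 0.09, adjusted p = 4.28e-09). Within both regions its lowest arrays were those of DBA/2J, and the groups overlapped. Gad1, a glutamate decarboxylase that makes GABA, differed by 0.54 ± 0.09 (adjusted p = 7.52e-05). Gad2, the second such enzyme, differed by 0.72 ± 0.15 (adjusted p = 0.00061), but DBA/2J went the other way and the adjusted p was 0.0656 in the same-animal pairs. Dlx5 (0.70 ± 0.15), Dlx2 (0.60 ± 0.11) and Lhx6 (0.56 ± 0.08), which guide the development of GABA neurons, passed as well. Foxp1 (-0.92 ± 0.15) and Zic1 (-1.11 ± 0.12) were the members that were higher in the cingulate cortex.

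A list of striatal projection neurons shares Penk, Tac1, Pdyn and Foxp1 with the lists above, and the striatum borders the central amygdala. Of its 9 tested members 5 passed as higher in the amygdala, among them Pde1b, a calcium-activated phosphodiesterase (0.82 ± 0.14, adjusted p = 7.19e-05), and the dopamine receptor Drd2 (0.48 ± 0.09, adjusted p = 0.000195). Arpp19 (-1.05 ± 0.10) and Foxp1 were higher in the cingulate cortex, and 2 members did not pass. The summed intensity of the list was 4867 to 10500 in the amygdala against 2484 to 3390 in the cingulate cortex. Penk alone, at 3183 to 7358 against 747 to 1405, made up much of this sum. The part of striatal tissue in the results was not tested. Here as in all bulk samples, fewer cells of a type and less RNA per cell cannot be told apart.

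Genes of cortical glutamatergic neurons were all higher in the cingulate cortex. The list counted 12 tested members, all of them passed, and the median was -0.86. Dkk3, a secreted protein of the dickkopf family, ranged from 35.7 over 51.3 to 63.97 in the amygdala and from 128 over 212 to 244 in the cingulate cortex (-1.73 ± 0.07, adjusted p = 1.03e-15). Tbr1, a T-box factor of early-born cortical neurons, ranged from 532 over 912 to 1704 and from 1915 over 2311 to 2934 (-1.29 ± 0.14, adjusted p = 3.29e-08). Neither gene had overlapping groups.

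Other transcription factors of this list followed. Satb1, a chromatin organiser, differed by -1.11 ± 0.09 with no overlap. Neurod6, a basic helix-loop-helix factor of pyramidal neurons, differed by -1.17 ± 0.15 and Mef2c by -1.02 ± 0.12. The other 3 probe sets of Mef2c gave -0.99, -1.17 and -1.82. Fezf2, needed for deep-layer projection neurons, differed by -0.70 ± 0.10 (adjusted p = 6.5e-06), and Neurod1 and Neurod2 by -0.47 each. Cck, the precursor of cholecystokinin, ranged from 1146 over 1313 to 2643 in the amygdala and from 2701 over 3326 to 4730 in the cingulate cortex, with no overlap (-1.06 ± 0.12, adjusted p = 1.22e-07). The synaptic zinc transporter Slc30a3 had the smallest difference of the list, -0.41 ± 0.09. Summed over the 12 genes, intensity was 4860 to 8762 in the amygdala against 9494 to 15010 in the cingulate cortex.

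Markers of single cortical layers split. Of 10 layer 5 genes tested, 6 passed as higher in the cingulate cortex, with Rbp4 (retinol-binding protein 4, -1.16 ± 0.13) and Id2 (-0.61 ± 0.09) among them, and none as higher in the amygdala. Of 7 genes of layers 2 to 4, Inhba, an activin subunit (-0.95 ± 0.17), and the LIM-only factor Lmo4 (-0.70 ± 0.09) were among 3 that were higher in the cingulate cortex, and Wfs1 was higher in the amygdala. Among 7 genes of layer 6 and the subplate, 3 were higher in the cingulate cortex, led by Tbr1, and 2 in the amygdala. The last were Rprm (565 to 1144 against 248 to 507, 1.19 ± 0.13, adjusted p = 3.53e-08, second probe set 1.002) and Lxn, a carboxypeptidase inhibitor (0.76 ± 0.10). Crym, a layer 5 and layer 6 marker, ranged from 47.3 to 332 in the amygdala and did not pass (0.51, adjusted p = 0.129).

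For the pallial part of the amygdala, 8 listed genes were tested. Of these 3 passed as higher in the amygdala, 2 as higher in the cingulate cortex and 3 did not pass, with a median of 0.09. Nr2f2, the nuclear receptor COUP-TFII, ranged from 234 over 489 to 634 in the amygdala and from 19.8 over 62.2 to 116 in the cingulate cortex (2.51 ± 0.16, adjusted p = 1.59e-12). The groups stood clear of each other, and the difference ran from 2.02 in FVB/NJ to 3.11 in C57BL/6J. Cdh13, a cadherin anchored by lipid, differed by 0.97 ± 0.11. Cck and the basic helix-loop-helix factor Tcf4 (-0.46 ± 0.08) were higher in the cingulate cortex. The hippocampus adjoins the amygdala, and 4 hippocampal genes were tested. Wfs1 and the desmosomal protein Pkp2 (0.67 ± 0.10) were higher in the amygdala against Neurod1 in the cingulate cortex. Zbtb20 was higher in the amygdala at 0.39 ± 0.12, and its adjusted p was 0.014.

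**Figure D3:**
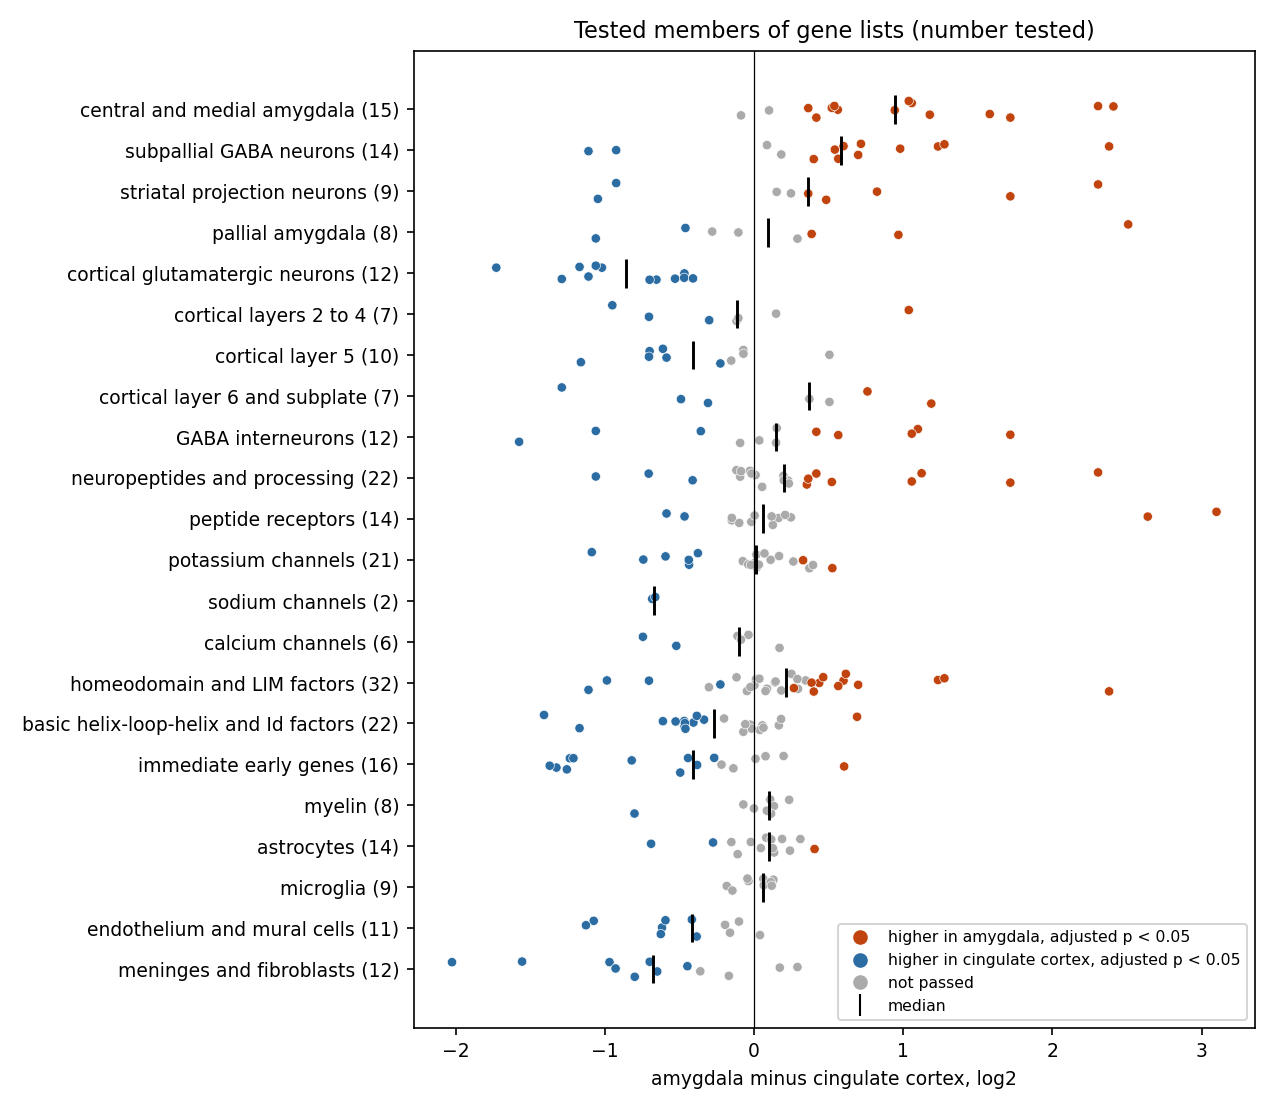
The plot of gene lists shows the log2 difference (amygdala minus cingulate cortex) of each tested member of 22 lists, with the number tested in brackets. Red points passed as higher in the amygdala, blue points as higher in the cingulate cortex and grey points did not pass, and the black bar is the median (0.94 for the central and medial amygdala and -0.86 for cortical glutamatergic neurons). Height within a row has no meaning.

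GABA interneuron markers moved in both directions. Pvalb, the calcium buffer parvalbumin of fast-spiking interneurons, ranged from 234 over 340.4 to 433 in the amygdala and from 728 over 1022 to 1609 in the cingulate cortex. There was no overlap, the difference was -1.57 ± 0.11 (adjusted p = 1.52e-11), and the second probe set gave -1.71. Syt2, a synaptotagmin found in terminals of fast-spiking neurons, differed by -1.41 ± 0.14 (adjusted p = 1.75e-08), also with no overlap. Calb2 (calretinin), in contrast, was higher in the amygdala, at 63.9 to 396 against 54.2 to 102 (1.10 ± 0.16, adjusted p = 8.2e-06). Calb1 (calbindin) did not pass (0.15, adjusted p = 0.186). Of 12 interneuron genes tested 5 passed as higher in the amygdala against 3 as higher in the cingulate cortex.

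Of 22 genes of neuropeptides and their processing, 8 passed as higher in the amygdala, 3 as higher in the cingulate cortex and 11 did not pass. The passing share was 50.0%, against 29.0% of all genes. Besides those named, Scg2 (secretogranin 2) was higher in the amygdala without overlap (1123 to 2519 against 562 to 921, 1.12 ± 0.10, adjusted p = 1.1e-09). Its relative Chgb (chromogranin B) was higher in the cingulate cortex without overlap (2014 to 2991 against 3088 to 3754), although by only -0.41 ± 0.06 (adjusted p = 1.01e-05). Adcyap1, the precursor of the peptide PACAP, was higher in the cingulate cortex as well (-0.71 ± 0.14). Resp18, a protein of secretory granules outside these lists, differed by 1.55 ± 0.18 (adjusted p = 1.08e-07). Its strain differences ran from 0.28 in DBA/2J to 2.41 in A/J, and the groups overlapped.

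Apart from Trhr and Npy2r, 12 peptide receptors and their partners were tested. With these 2 the passing share was 28.6%, close to the 29.0% of all genes. It was 33.3% for the amine receptors and 25.0% for the orphan and adhesion receptors given below. The natriuretic peptide receptor Npr3 (-0.59 ± 0.13) and the receptor partner Ramp3 (-0.47 ± 0.11) were higher in the cingulate cortex. For Ramp3 the adjusted p was 0.0639 with scan day as a term. The somatostatin receptor Sstr2 had 0.25 ± 0.10 (adjusted p = 0.0537) and the cholecystokinin receptor Cckbr -0.15, neither of which passed. Among 9 receptors for serotonin, dopamine, histamine and adrenaline, Drd2 and the histamine receptor Hrh2 (0.32 ± 0.10, adjusted p = 0.0218) were higher in the amygdala. Drd4 was higher in the cingulate cortex (-0.40 ± 0.11), with an adjusted p of 0.15 once scan day was a term. Of 12 orphan and adhesion receptors 3 were higher in the cingulate cortex and none in the amygdala. Adgrd1, an adhesion receptor, ranged from 55.2 over 87.03 to 132 in the amygdala and from 152 over 195 to 276 in the cingulate cortex (-1.07 ± 0.08, adjusted p = 6.05e-11). The 5 receptors for GABA-B, lysophosphatidic acid and sphingosine-1-phosphate lay between -0.20 and 0.14, and 0 of them passed in limma, also at an unadjusted p below 0.05.

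Ion channels that passed were mostly higher in the cingulate cortex. Passing shares were 38.1% for potassium, 33.3% for calcium and 10.0% for chloride and TRP channel genes, against 29.0% of all genes. Of 21 potassium channel genes 6 were higher in the cingulate cortex, 2 in the amygdala and 13 did not pass. Kcnk1, a two-pore leak channel, ranged from 290 over 413 to 508 in the amygdala and from 591 over 660 to 909 in the cingulate cortex, with no overlap (-0.74 ± 0.09, adjusted p = 1.82e-07). Kcnj9, a G protein-gated inward rectifier, ranged from 35.6 over 246 to 616 and from 63.9 over 567 to 723 (-1.09 ± 0.14, adjusted p = 6.4e-07). The lowest arrays of each region were both C57BL/6J arrays, and a second probe set of Kcnj9 did not pass (-0.47, adjusted p = 0.0545).

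Smaller differences were found for the delayed rectifier Kcna1 (-0.59 ± 0.12), the calcium-activated channel Kcnma1 (-0.44 ± 0.07), the auxiliary subunit Kcnab2 (-0.44 ± 0.09) and the leak channel Kcnk4 (-0.38 ± 0.09). On the amygdala side Dpp6, an auxiliary subunit of A-type channels, differed by 0.52 ± 0.12 (adjusted p = 0.00121). Hcn2, a pacemaker channel, passed with 0.33 ± 0.12 (adjusted p = 0.0479) on one probe set and in the opposite direction on another (-0.29, adjusted p = 0.0439). It did not pass without any 1 of 16 of the 26 arrays, with adjusted p of up to 0.104 without A/J amygdala replicate 2.

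Both sodium channels tested were higher in the cingulate cortex. Scn1a, the main sodium channel of fast-spiking interneurons, ranged from 670.2 over 898 to 1139 in the amygdala and from 1146 over 1437 to 1722 in the cingulate cortex. The groups did not overlap (-0.68 ± 0.09, adjusted p = 1.67e-06), and the second probe set gave -0.93. Scn8a differed by -0.66 ± 0.13 (adjusted p = 0.000273) at lower intensities. Of 6 calcium channel genes, Cacng2 (stargazin, a partner of AMPA receptors) ranged from 150 over 191 to 239 and from 255 over 342 to 418 without overlap (-0.75 ± 0.07, adjusted p = 1.15e-09). Cacna2d1 differed by -0.52 ± 0.13, and the pore subunits Cacna1c (0.17) and Cacna1g (-0.04) did not pass. Among 10 chloride and TRP channel genes Trpc4 alone passed, as higher in the amygdala (0.60 ± 0.09, adjusted p = 1.42e-05).

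Receptor channels for fast transmitters differed by subunit. Gabrd, the delta subunit of GABA-A receptors outside synapses, ranged from 31.7 over 46.6 to 96.0 in the amygdala and from 96.9 over 124 to 214 in the cingulate cortex. The highest amygdala array lay just below the lowest cingulate array, and the difference was -1.23 ± 0.13 (adjusted p = 4.81e-08). Gabrb1, a beta subunit, was higher in the amygdala at 2523 to 4061 against 1735 to 2602 (0.49 ± 0.07, adjusted p = 8e-06). The glycine receptor subunit Glrb was higher in the cingulate cortex (-0.39 ± 0.10), and its adjusted p was 0.0985 in the same-animal pairs. Of 6 glutamate receptor subunits the AMPA subunit Gria1 was higher in the amygdala without overlap, at 1224 over 1617 to 2668 against 759 over 1015 to 1204 (0.81 ± 0.11, adjusted p = 9.87e-07). The kainate subunit Grik1 differed by 0.45 ± 0.09. Gria2, Gria3, Grik5 and Grin2c did not pass. The ATP-gated channel P2rx4 was higher in the cingulate cortex (-0.68 ± 0.08, adjusted p = 5.19e-07), and the other 5 acetylcholine, serotonin and purine receptor channels did not pass.

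Of 39 genes of G protein signalling, phosphodiesterases, adenylyl cyclases and protein kinase C, 10 were higher in the amygdala against 11 in the cingulate cortex. Their passing share was 53.85%, and it was 45.45% for the calcium-binding proteins and 50.0% for the transmitter transporters below, against 29.0% of all genes. Adcy2, an adenylyl cyclase, had no overlap (401 to 776 against 885 to 1291, -0.97 ± 0.08, adjusted p = 2.47e-10). Rgs11 differed by -0.89 ± 0.15 and Rgs7, of the same family of G protein regulators, by -0.57 ± 0.10. Prkcb, a calcium-dependent protein kinase C, differed by -0.52 ± 0.09 and Prkca by -0.57 ± 0.09. On the amygdala side were Pde9a (0.74 ± 0.08, no overlap), Rgs2 (0.73 ± 0.12) and Rgs10 (0.58 ± 0.08). The calcium sensor Hpcal1 ranged from 1680 over 2050 to 2767 in the amygdala and from 551 over 716 to 999 in the cingulate cortex (1.53 ± 0.08, adjusted p = 2.22e-14). It was among 11 calcium-binding proteins, of which 2 were higher in the amygdala against 3 in the cingulate cortex. Of 14 transmitter transporters 4 were higher in the amygdala, led by Slc32a1 and the glutamate transporter Slc1a6 (0.54 ± 0.09), and 3 in the cingulate cortex, led by Slc6a13, a GABA transporter also found in meninges (-0.78 ± 0.11).

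Transcription factor families divided between the regions. Of 32 homeodomain and LIM factors 12 were higher in the amygdala, 4 in the cingulate cortex and 16 did not pass, with a median of 0.22. Besides Pbx3, Zfhx3, Six3, Dlx2 and Dlx5 these were, among others, Nkx6-2 (0.62 ± 0.11), Pbx2 (0.46 ± 0.10) and the LIM-only factor Lmo1 (0.44 ± 0.10). On the other side stood Satb1, Lmo4 and Pou6f1 (-0.99 ± 0.14), of which Pou6f1 had a second probe set that did not pass (0.13). Of 22 basic helix-loop-helix and Id factors 11 were higher in the cingulate cortex and only Id4 in the amygdala (0.69 ± 0.15). Bhlhe40, a repressor linked to the circadian clock and to activity, had no overlap, at 82.3 over 106 to 195 against 212 over 302 to 467 (-1.41 ± 0.10, adjusted p = 9.77e-12). Hey1, a target of Notch, differed by -0.53 ± 0.09 and Id3 by -0.46 ± 0.13.

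Nuclear receptors held Nr2f2, its relative Nr2f1 (0.76 ± 0.10, adjusted p = 9.05e-07) and the thyroid hormone receptor Thra (0.41 ± 0.10) on the amygdala side. Rora (-0.85 ± 0.13) and 4 others of the 15 tested were higher in the cingulate cortex. Of 50 further neural transcription factors 5 were higher in the amygdala against 20 in the cingulate cortex. Sox11, a factor of young neurons, differed by 1.11 ± 0.11 and by 0.90 on a second probe set. Myt1, a zinc finger factor, had no overlap (0.96 ± 0.08, adjusted p = 2.1e-10), and Sox2 differed by 0.73 ± 0.12. Nfix, a nuclear factor I gene, ranged from 238 over 329 to 557 in the amygdala and from 677.6 over 1072 to 1727 in the cingulate cortex (-1.54 ± 0.12, adjusted p = 1.38e-10). Nfic differed by -0.70 ± 0.10, and the Krüppel-like factors Klf10 (-0.74 ± 0.12), Klf6 (-0.52 ± 0.08) and Klf9 (-0.39 ± 0.10) were higher in the cingulate cortex.

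Immediate early genes, which neurons switch on within minutes of activity, were mostly lower in the amygdala. Of 16 tested, 10 passed as higher in the cingulate cortex, Jun passed as higher in the amygdala (0.60 ± 0.11, adjusted p = 0.00016) and 5 did not pass, with a median of -0.41. Egr1, a zinc finger factor, ranged from 814 over 1338 to 2756 in the amygdala and from 2301 over 3306 to 4673 in the cingulate cortex (-1.32 ± 0.16, adjusted p = 2.08e-07). A second and dimmer Egr1 probe set did not pass, at 0.45 (adjusted p = 0.0822). Fos, a subunit of the AP-1 factor, ranged from 94.9 over 285 to 658 and from 220 over 667 to 1253 (-1.25 ± 0.24, adjusted p = 0.000262). Both groups of Fos spread over more than a factor of 5 and overlapped, yet the cingulate array was higher in 8 of 8 same-animal pairs. The same held for Egr1, for the orphan nuclear receptor Nr4a1 (-1.24 ± 0.12, adjusted p = 1.13e-08) and for Dusp6, a phosphatase that shuts off ERK kinase (-1.21 ± 0.14, adjusted p = 1.58e-07).

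Egr2, a second zinc finger factor, ranged from 53.3 over 77.3 to 166 in the amygdala and from 85.0 over 272 to 585 in the cingulate cortex (-1.37 ± 0.23, adjusted p = 3.59e-05). Its difference ran from -2.51 in 129S6/SvEvTac to -0.49 in C57BL/6J, and that of Fos from -2.24 to -0.48 in the same strains. For Fos, Egr1 and Egr2 the 129S6/SvEvTac replicate 1 arrays of the 2 regions name the same animals, and they were among the 2 highest arrays of both regions. Smaller differences were those of Per1 (-0.82 ± 0.15), Dusp1 (-0.49 ± 0.08), the growth factor Bdnf (-0.44 ± 0.12) and Fosb (-0.38 ± 0.11, adjusted p = 0.0581 with scan day as a term).

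Promoters of immediate early genes and of 2 peptide genes are shown because the cyclic AMP response element, at which the activity-dependent factor CREB binds, is a known feature of such genes. Capitals mark its core TGACG, searched on both strands (CGTCA on the strand printed). The windows run from 250 bases before to 50 bases after a start given by RefSeq (assembly GRCm38.p6). Fos lies at chr12:85473640-85473939 (+), Nr4a1 at chr15:101266596-101266895 (+), Egr2 at chr10:67537619-67537918 (+), Tac1 at chr6:7554811-7555110 (+) and Cck at chr9:121495645-121495944 (-). For Egr2, the table holds 5 windows, and one of those with the most matches is shown.
Fos: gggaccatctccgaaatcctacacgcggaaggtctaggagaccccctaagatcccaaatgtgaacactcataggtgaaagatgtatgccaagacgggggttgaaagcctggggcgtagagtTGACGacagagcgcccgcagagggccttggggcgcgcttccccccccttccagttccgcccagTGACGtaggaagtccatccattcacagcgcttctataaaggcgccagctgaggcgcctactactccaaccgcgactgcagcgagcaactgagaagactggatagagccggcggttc
Nr4a1: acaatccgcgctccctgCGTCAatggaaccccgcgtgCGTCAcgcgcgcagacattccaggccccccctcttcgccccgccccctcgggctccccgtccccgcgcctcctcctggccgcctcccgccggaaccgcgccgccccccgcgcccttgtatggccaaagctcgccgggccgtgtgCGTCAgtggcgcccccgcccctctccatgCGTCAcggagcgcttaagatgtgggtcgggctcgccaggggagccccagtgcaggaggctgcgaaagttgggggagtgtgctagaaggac
Egr2: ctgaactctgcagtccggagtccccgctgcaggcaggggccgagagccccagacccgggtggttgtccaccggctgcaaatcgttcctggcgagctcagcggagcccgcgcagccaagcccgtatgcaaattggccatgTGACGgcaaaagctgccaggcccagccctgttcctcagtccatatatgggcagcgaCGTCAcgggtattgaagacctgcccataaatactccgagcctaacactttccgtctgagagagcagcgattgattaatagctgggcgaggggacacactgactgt
Tac1: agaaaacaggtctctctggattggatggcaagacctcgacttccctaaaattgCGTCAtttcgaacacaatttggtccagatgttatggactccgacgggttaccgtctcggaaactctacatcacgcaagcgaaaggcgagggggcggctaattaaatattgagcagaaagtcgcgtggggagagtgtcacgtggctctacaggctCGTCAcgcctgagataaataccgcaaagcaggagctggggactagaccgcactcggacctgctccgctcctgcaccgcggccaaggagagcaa
Cck: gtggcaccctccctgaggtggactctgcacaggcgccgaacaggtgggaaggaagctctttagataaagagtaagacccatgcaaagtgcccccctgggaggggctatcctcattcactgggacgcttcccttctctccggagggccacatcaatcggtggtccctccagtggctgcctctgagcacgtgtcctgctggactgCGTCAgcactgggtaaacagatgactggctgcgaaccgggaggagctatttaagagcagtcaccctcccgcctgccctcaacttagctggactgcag

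The core was present in a window of 8 of the 9 immediate early genes that were lower in the amygdala and have a promoter in the table (88.9%), against 23.1% of all 27025 genes and 20.8% of all 32851 windows. Several of these genes have more than 1 window, which raises the chance of a match. Nr4a1 holds 4 such cores, each as TGCGTCA, a string found in 2.12% of all windows. That string stands also in the window of Tac1, which was higher in the amygdala, and in that of Cck, which was higher in the cingulate cortex. Immediate early genes that were not lower in the amygdala were not counted, so the share says nothing about the direction of the difference. A match is a description of the letters only.

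Single genes of cell adhesion and guidance differed strongly, but the lists had medians near 0 (0.003 for guidance genes and -0.02 for cadherins). Passing shares were 36.4% and 50.0%, against 29.0% of all genes. Efnb3, an ephrin ligand, ranged from 928 over 1126 to 1542 in the amygdala and from 207 over 303 to 408 in the cingulate cortex (1.93 ± 0.09, adjusted p = 4.44e-15), but a second probe set did not pass (0.10, adjusted p = 0.457). Unc5c, a netrin receptor, had no overlap (0.61 ± 0.08, adjusted p = 7.78e-07). In the cingulate cortex the receptor Ephb6 was higher (-1.43 ± 0.14, no overlap, with amygdala intensities from -1.89 to 40.8), as was the semaphorin Sema7a (52.3 over 75.2 to 129 against 127 over 238 to 375, -1.29 ± 0.08, adjusted p = 2.08e-12). Of 22 genes in this family 3 were higher in the amygdala against 5 in the cingulate cortex. Of 6 cadherins Cdh13 was higher in the amygdala, while Cdh11 (40.3 to 94.9 against 101.1 to 288, -1.11 ± 0.13) and the endothelial Cdh5 (-0.63 ± 0.11) were higher in the cingulate cortex.

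Genes with large differences outside any list complete the ends of the ranking. On the amygdala side were Myh7, a myosin heavy chain (306 to 658 against 36.0 to 158, 2.30 ± 0.16), Gstm6, a glutathione transferase near background (amygdala median 66.7 and cingulate median -0.65, with a difference of 1.029 to 3.442 as the constant went from 64 to 4), and Cmbl, a hydrolase (585 to 1081 against 143 to 268, 1.88 ± 0.09, adjusted p = 2.79e-15). The probe sets of Myh7, Penk, Npy2r, Hpcal1, Ptgds, Rprm, Chgb, Kcnab2, Rgs10 and Pkp2 carry the maker's mark for sequence shared within a family, so related transcripts may add to their values. Those of Nr2f2, Pvalb, Scn1a and Prkcd, among others, carry other marks of the maker, which were not used here. Mycl, a Myc family factor, differed by 1.56 ± 0.16. On the cingulate side stood 1110008P14Rik (50.9 over 78.3 to 136 against 215 over 393 to 556, -1.91 ± 0.11), Npnt, the matrix protein nephronectin (23.7 over 40.2 to 67.5 against 111 over 192 to 285, -1.89 ± 0.11) and Tnnc1, a troponin (-1.81 ± 0.14), all without overlap. Nrep ranged from 747 over 1052 to 2312 and from 2489 over 3502 to 5415 (-1.62 ± 0.11, adjusted p = 9.15e-12). Tfcp2l1, a grainyhead-like factor, differed by -1.40 ± 0.08, while its second probe set did not pass (0.06). Frzb, a secreted Wnt antagonist, differed by -1.61 ± 0.22, from -2.56 in FVB/NJ to -0.19 in C57BL/6J, whose 2 cingulate arrays were the lowest of that region at 0.24 and 18.1.

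**Figure D4:**
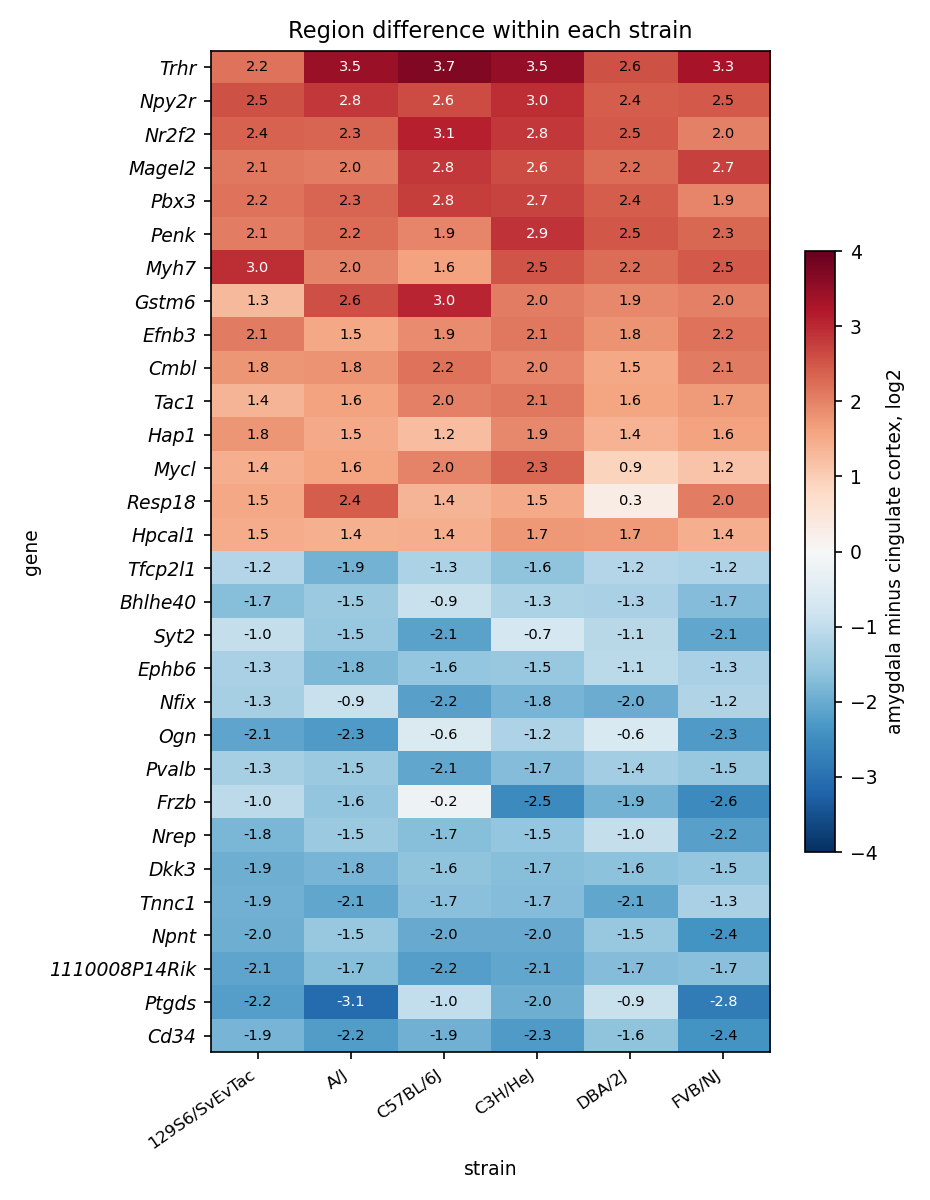
The map of strains shows the log2 difference (amygdala minus cingulate cortex) within each of 6 strains for the 15 highest and 15 lowest genes, ordered by the difference over all arrays. Every cell has the sign of its row. The palest cells are Frzb in C57BL/6J (-0.19) and Resp18 in DBA/2J (0.28).

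Markers of meninges and vessels were higher in the cingulate cortex. Of 12 tested genes of meninges and fibroblasts 8 passed as higher in the cingulate cortex, none as higher in the amygdala, and the median was -0.67. Ptgds, a prostaglandin synthase abundant in the meninges, ranged from 347 over 484 to 2575 in the amygdala and from 1935 over 2839 to 4308 in the cingulate cortex (-2.02 ± 0.26, adjusted p = 1.12e-06, other probe sets -1.76 and -2.22). The groups overlapped through C57BL/6J amygdala replicate 1 (2575), which exceeded the cingulate array of the same animals. Ogn, a small proteoglycan, differed by -1.55 ± 0.20, Bgn by -0.70 ± 0.15 and Lum by -0.45 ± 0.12, while the collagens Col1a1 (-0.17) and Col1a2 (0.17) and the proteoglycan Dcn (0.29) did not pass. The summed intensity of the 12 genes was 1310 to 4259 in the amygdala against 3678 to 7630 in the cingulate cortex, and none of the 12 was at or below 0 on any array. Cd34, a surface protein of endothelium and other cells, had the largest difference on this side (27.97 over 49.6 to 69.0 against 185 over 236 to 292, -2.05 ± 0.10, adjusted p = 5.67e-15).

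Of 11 tested genes of endothelium and mural cells 7 were higher in the cingulate cortex and none in the amygdala, with a median of -0.42. Acta2, the actin of smooth muscle (-1.13 ± 0.17), Vwf (-1.07 ± 0.13) and Cldn5, of the tight junctions of brain vessels (-0.62 ± 0.14), were among them, while Pecam1 (0.04), Kdr (-0.16) and Flt1 (-0.19) did not pass. Their sum was 1100 to 1682 in the amygdala against 1506 to 2158 in the cingulate cortex. Both haemoglobin genes tested were higher in the cingulate cortex, Hba-a1 by -1.11 ± 0.20 and Hbb-b2 by -0.73 ± 0.17, with sums of 203 to 637 and 216 to 1808. The part of meninges, vessels and blood in the differences of other genes was not tested.

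Glia differed little. Of 9 microglial genes 0 passed in limma, 0 also at an unadjusted p below 0.05, and all lay between -0.18 and 0.13. Of 8 myelin genes only Apod passed, as higher in the cingulate cortex (-0.80 ± 0.10), while Mbp (0.11), Mog (0.13) and Mobp (0.24) did not. Among 14 astrocyte genes Mt3 was higher in the amygdala (0.41 ± 0.10) and the connexin Gjb6 (-0.69 ± 0.10) and Sparcl1 (-0.28 ± 0.07) in the cingulate cortex. Passing shares were 12.5% for myelin and 21.4% for astrocyte genes, against 29.0% of all genes.

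Choroid plexus and neighbouring regions were checked through their markers. Ttr, which the choroid plexus makes in large amounts, ranged from 79.9 over 555 to 4693 in the amygdala and from 58.4 over 133 to 2427 in the cingulate cortex. Its highest values were in A/J replicate 1 and 129S6/SvEvTac replicate 2 of the amygdala, and in C57BL/6J replicate 1 of the cingulate cortex. Ttr did not pass (1.65 ± 0.67, adjusted p = 0.0665). It did pass without that cingulate array (2.02, adjusted p = 0.0171), and also without amygdala replicate 1 or 3 of 129S6/SvEvTac or replicate 2 of A/J, C57BL/6J or DBA/2J (adjusted p of 0.0242 to 0.0459). With scan day as a term the difference of Ttr was 2.87 (adjusted p = 0.00198), in the same-animal pairs 0.69 (adjusted p = 0.509) and in arrays scanned 2 times -1.12 (adjusted p = 0.486). Within strains it ran from -1.65 in C57BL/6J to 4.785 in FVB/NJ. Of the other 4 genes of choroid plexus and ependyma, Rsph1 (0.62 ± 0.15) and Foxj1 (0.27 ± 0.09) were higher in the amygdala and Igf2 (-0.80 ± 0.19) in the cingulate cortex, and Foxj1, tested in 21 of the 26 fits that leave out 1 array, did not pass without cingulate replicate 2 of 129S6/SvEvTac or replicate 1 of C3H/HeJ or FVB/NJ (adjusted p of up to 0.0671). The hypothalamic genes Oxt (0.20), Pomc (0.05) and Trh did not pass, while Gal did. Of 10 thalamic genes 2 were higher in the amygdala (Calb2 and Prkcd) and 5 in the cingulate cortex. Their passing share was 70.0%, against 29.0% of all genes. Of 6 genes of steroid signalling only Hsd11b1 passed (16.7%), as higher in the cingulate cortex (-0.41 ± 0.15, adjusted p = 0.0454). That call was lost without any 1 of 15 arrays, with adjusted p of up to 0.0964 without C57BL/6J cingulate replicate 1. Of the list of globus pallidus and cholinergic neurons only Penk and Pvalb were tested, with the opposite signs given above.

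The bed nucleus of the stria terminalis, a subpallial region linked to the amygdala, and the hippocampus were measured on 13 and 12 other arrays of the series, labelled from 10 µg of RNA. The experiment files name no animal shared with the 26 arrays, and they name the same animals for both FVB/NJ arrays of the bed nucleus, for which the labels give 2 mice and 3 mice. The fit counts these as 2 replicates. Of the 6453 probe sets tested there 24.7% were higher in the bed nucleus and 21.6% higher in the hippocampus. Of the 43 genes that were 2-fold higher in the amygdala 39 were tested there, of which 28 were higher in the bed nucleus and 8 in the hippocampus, with a median of 1.01. Of the 57 genes that were 2-fold higher in the cingulate cortex 48 were tested, of which 33 were higher in the hippocampus and 7 in the bed nucleus, with a median of -0.71. For all 4527 genes tested in both the counts were 1139 and 964 and the median was 0.01.

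Penk (2.10), Tac1 (1.73), Pbx3 (1.48), Hap1 (1.46), Magel2 (2.15) and Slc32a1 (1.23) had bed nucleus minus hippocampus differences of the same sign as their amygdala differences. Dkk3 (-2.90), Neurod6 (-3.96), Tbr1 (-2.35) and Satb1 (-1.47) also kept their sign, which is here higher in the hippocampus. Opposite signs were found for Npy2r (-1.12) and Gria1 (-1.32), which were higher in the hippocampus, and for Pvalb (1.17), Gabrd (1.36) and Zic1 (4.06), which were higher in the bed nucleus. Fos (0.61) was also of opposite sign, while Nr4a1 (-1.57) and Egr1 (-1.12) were not. Trhr did not pass the filter on low values in those regions.

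**Figure D5:**
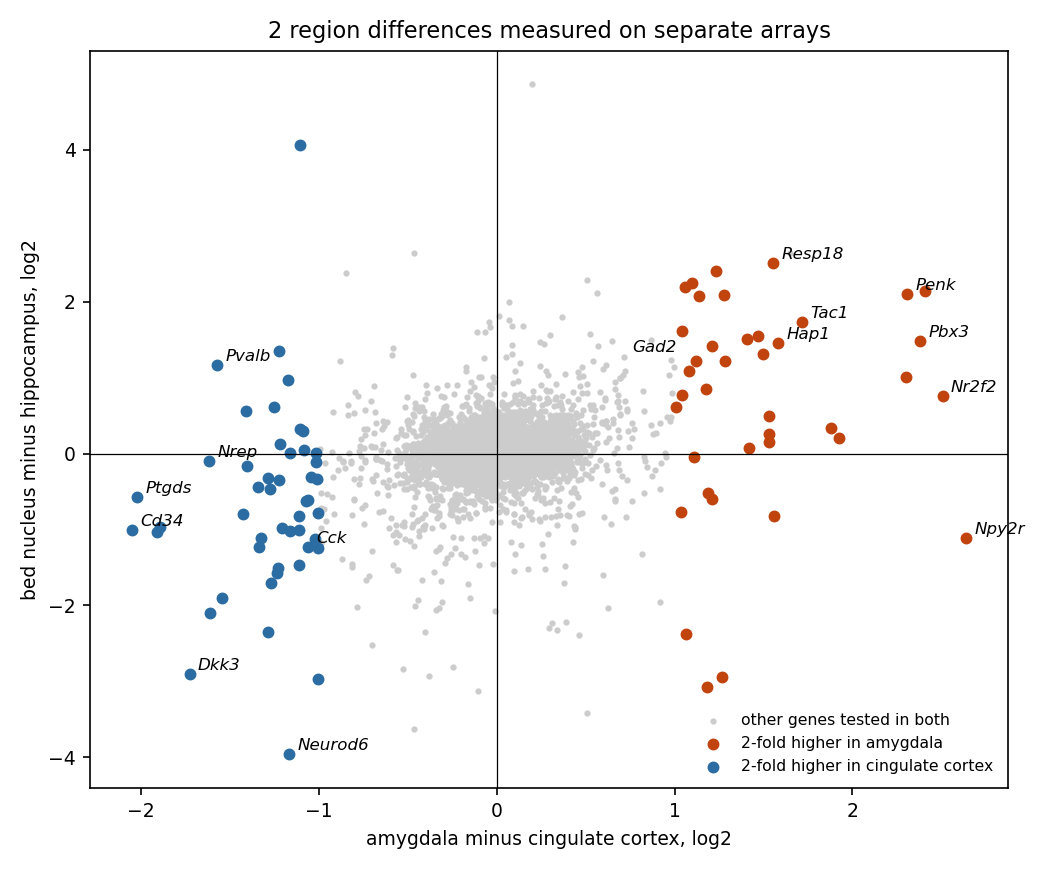
The plot of the 2 region pairs shows the bed nucleus minus hippocampus log2 difference (y axis) against the amygdala minus cingulate cortex log2 difference (x axis) for 4527 genes. Red points are genes at least 2-fold higher in the amygdala (28 of 39 higher in the bed nucleus) and blue points genes at least 2-fold higher in the cingulate cortex (33 of 48 higher in the hippocampus). The pairs were measured on separate arrays.

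Few probe sets passed a test of whether the region difference depended on strain. With so few arrays per group, a probe set that did not pass is not shown to be alike in all strains. An F test on the means of the 12 groups of strain and region passed for 9 probe sets (0.141%), and 8 of them carry a gene name. None of these 8 was among the 43 and 57 genes with 2-fold differences. Rbmx, an RNA-binding protein, had the largest F (17.7, adjusted p = 0.00426), with differences from -0.60 in FVB/NJ to 1.33 in C57BL/6J. The largest or smallest difference was that of C57BL/6J for 6 of the 8 genes. The test holds no term for scan day, which cannot be told apart from region within C57BL/6J and 3 other strains. Leaving out any 1 array gave between 0 and 31 probe sets past this test, and the count also depended on the processing, as set out at the end.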

How the data were processed

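Per the labels, RNA of each array was hybridised to an Affymetrix MG_U74Av2 array. The deposited values are 1 intensity per probe set and array, linear and background-subtracted as far as the values show (7.04% of values of the 26 arrays lie below 0). No source used here names the software or scaling behind them. Experiment files deposited with them gave the animals named for each array, the scan day and the number of scans. Of 12488 probe sets 66 are controls. Of the other 12422, 10833 carry 1 gene symbol in the platform annotation, 396 several and 1193 none, and only the first kind was named.

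Intensities below 0 were set to 0, 16 was added and log2 taken, without further scaling. A probe set was tested if its higher region mean exceeded the median of all values (an intensity of 48.6). The fit used limma 3.58.1 (lmFit, eBayes) in R 4.3.3 with region and strain as terms, and Benjamini-Hochberg adjustment. Strain dependence was tested by the moderated F test of the region by strain terms. The bed nucleus and hippocampus arrays were fitted in the same way by themselves. The brightest probe set stood for a gene that has more than 1, and 2-fold means an absolute log2 difference of at least 1. The number of arrays limits the precision.

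The 43 gene lists, the named genes and the tests were chosen with earlier results of these data known. Named genes were the 15 largest differences in each direction with 1 sign in all 6 strains, up to 6 members of each list by size of difference, and genes past the strain test. Members given beside them to set out a list's counts fall under the same rule. Of the 8 array pairs that name the same animals 6 share a replicate number, and the 2 pairs of A/J do not. The deviations of same-numbered arrays from their group means correlated at -0.35 to 0.20, and those of arrays naming the same animals at -0.21 to 0.23. On simulated data with 100 probe sets changed at each size, 35 were recovered at 1.25-fold and 92 at 1.5-fold, with 4 false calls. Far fewer probe sets were changed there than the 28.5% that passed in the data, and the simulated noise was independent between arrays. These rates therefore need not hold for the data.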

Additional observations from a re-analysis of the deposited data

Results flagged for a closer look

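The amygdala minus cingulate cortex difference of 8 named genes differed between the 6 strains by the moderated F test of limma. Rbmx, an RNA-binding protein, had F = 17.67 (adjusted p = 0.00426), with log2 differences from -0.60 in FVB/NJ to 1.33 in C57BL/6J, and its second probe set did not pass the region test (-0.02). Gsta4, a glutathione transferase, had F = 11.68 and ran from -0.86 in C3H/HeJ to 1.31 in C57BL/6J. For Ybx2, a nucleic acid-binding protein, F was 11.19, from -0.63 in C3H/HeJ to 1.11 in FVB/NJ. Celsr2, a cadherin of the flamingo type, had F = 10.69, from -0.59 in C57BL/6J to 1.04 in A/J. With F = 10.64, Smad4, the shared mediator of TGF-beta signals, ran from -0.75 in FVB/NJ to 0.62 in C57BL/6J. The protease Capn7 had F = 10.34, from -0.47 in FVB/NJ to 0.86 in C57BL/6J. Alcam, an adhesion molecule, had F = 10.22, from -0.40 in A/J to 1.27 in C57BL/6J. The adjusted p was 0.0355 for each from Gsta4 to Alcam. Elovl1, a fatty acid elongase, had F = 9.75 (adjusted p = 0.0441), from -0.62 in DBA/2J to 1.61 in FVB/NJ. C57BL/6J held the largest or smallest difference for 6 of the 8 genes. In 4 of the 6 strains, C57BL/6J among them, no scan day held both regions, and in C57BL/6J no chip lot did, so region and scan day cannot be told apart within these strains. Each strain gave 2 or 3 arrays per region, and the number of probe sets past this test ranged from 0 to 31 when any 1 array was left out.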

How the results depend on the processing

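Of 210 named genes that passed, 122 lost their call under none of those among 49 other settings in which the filter let them be tested, and likewise 27 of the 30 largest differences under these and 6 more chosen after seeing the data. With scan day as a fixed term 183 of the 210 calls held and 27 were lost, in arrays of the 4 scan days that hold both regions 182 held, and in the 8 same-animal pairs 163 of 206 tested held and 43 were lost. Leaving out 1 of the 26 arrays gave 820 to 989 probe sets higher in the amygdala and 856 to 968 higher in the cingulate cortex. When replicate 1, 2 or 3 of every group was also left out, the ranges were 308 to 989 and 362 to 968, with 559 in the amygdala without replicate 2, and these fits hold fewer arrays. At 2-fold the same settings gave 52 to 65 and 66 to 78. With a pseudocount of 64 the 2-fold counts were 27 and 27, since a larger constant shrinks differences of dim genes. A fit on all 87 arrays gave 1389 probe sets higher in the amygdala, and the cause was not tested. With replicate number within strain as a block the counts were 741 and 774, and 200 of the 210 named calls held, while the 8 pairs from the same animals, with the pair as a block, gave 535 and 522 on 16 arrays. Fewer arrays also stood behind 1 scan day alone (500 and 506, with 120 at 2-fold in the cingulate cortex), arrays scanned 1 time (177 and 247) and arrays scanned 2 times (413 and 364, with 84 at 2-fold in the amygdala). The fit of 1 scan day alone held no strain term. On that day only A/J gave arrays of both regions, so strain differences may enter its counts and signs. Signs turned in 1 scan day alone for Rbmx (-0.26), Smad4 (-0.57), Hsd11b1 (0.14), Epha5 (-0.025), Hba-a1 (0.37) and Hbb-b2 (0.25), in arrays scanned 1 time for Pdyn (-0.040), and in arrays scanned 2 times for Reln (0.089), Foxj1 (-0.0037) and Ttr (-1.12, which passed in neither). The strain test was the least stable, with 115 probe sets after setting array medians equal, 26 with a pseudocount of 64, 16 with a filter on the mean of all 26 arrays, 2 with no filter and 0 to 36 with arrays left out. Bed nucleus counts ranged from 858 to 1584 (1028 without replicate 2) and hippocampus counts from 768 to 1365 with replicates left out, and averaging the 2 FVB/NJ bed nucleus arrays gave 1569 and 1379. Differences under about 1.5-fold were often missed in the simulated data, whose rates need not hold for these arrays. Dim probe sets have folds that depend on the pseudocount.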
